A study of Mus musculus with 12 samples.

Results

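Transcripts of 9 genes of sugar and monocarboxylate transport were followed in mouse heart ventricle: the glucose transporters Slc2a1, Slc2a3, Slc2a4, Slc2a8 and Slc2a12, the lactate, pyruvate and ketone body transporters Slc16a1, Slc16a3 and Slc16a7, and Bsg, the partner protein of the monocarboxylate transporters. They were chosen by name and matched through Ensembl gene IDs, and all 9 were found among the 51912 genes of the table and entered the test of 13865 genes. RNA of fresh ventricle had been sequenced from LCHADD and wild-type (WT) mice of both sexes, with 3 libraries in each of the 4 groups. LCHADD is long-chain 3-hydroxyacyl-CoA dehydrogenase deficiency, in which mitochondria cannot complete the oxidation of long-chain fatty acids. The labels state that no group was treated. The sources used here do not give allele, promoter, strain, age or feeding state, nor whether the numbered libraries of a group came from separate animals, so the p-values measure the spread between these libraries.

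The heart draws most of its energy from fatty acids and takes up glucose, lactate and ketone bodies beside them. Glucose enters by facilitated diffusion: GLUT1 (Slc2a1) sits largely at the cell surface, while GLUT4 (Slc2a4), the main carrier of adult heart and skeletal muscle, is held in vesicles and moved to the surface by insulin or contraction. The monocarboxylate transporters MCT1 (Slc16a1), MCT2 (Slc16a7) and MCT4 (Slc16a3) carry lactate, pyruvate and ketone bodies together with a proton, and MCT1 and MCT4 need basigin (Bsg) to reach the membrane.

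Depth ran from 15.6 M to 23.2 M reads per library (M, mega), and values are normalised reads, that is, reads divided by a size factor of each library. LCHADD female 2 stood apart, with 9.10% of tested genes more than 1.5-fold from their group's mean, and LCHADD female 3 followed with 6.65%, while the other libraries lay between 2.93% and 4.38%. Mitochondrially encoded genes took 27.5 to 32.7% of reads in WT and 31.0 to 37.9% in LCHADD libraries. Cell type markers were counted beside the share of all tested genes that passed in either direction, 33.8% in females and 15.5% in males. Of 6 cardiomyocyte markers 5 fell in LCHADD females and 1 in males. Their summed value ranged from 917098 to 984566 (WT) against 491340 to 754006 (LCHADD) in females, lowest in LCHADD female 2. In males the sums were 915387 to 982998 for WT and 760789 to 862739 for LCHADD. Endothelial markers fell in both sexes (4 of 6 in each), with sums of 10300 to 11660 in WT and 8282 to 9351 in LCHADD libraries. All 5 fibroblast markers fell in females and 1 in males. Of 5 macrophage markers 2 rose in females and 0 passed in males, of 5 mural markers 0 passed in females and 2 fell in males, and the 3 erythroid markers tested fell in both sexes. The defining markers of skeletal muscle, Myh1, Myh2 and Myh4, were at or near 0 in every library, as was the atrial marker Sln. Of 4 atrial markers 2 were tested and 0 passed in either sex. Atrial marker sums were 177 to 272 in WT and 131 to 285 in LCHADD libraries. Ckm, which heart also expresses and the only skeletal muscle marker with enough reads, fell by 0.28 on the log2 scale in females (adjusted p = 0.046). Of 4 adipocyte markers only Cfd had enough reads to be tested. In bulk tissue, fewer cells of a type and less RNA per cell cannot be told apart.

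In LCHADD females 4 of the 9 genes passed the test, 3 higher (Slc2a1, Slc16a7, Bsg) and 1 lower (Slc2a4), against 33.8% of all tested genes in that comparison (16.7% higher and 17.2% lower). In LCHADD males 1 of 9 passed, Slc16a7, which was higher, against 15.5% of all genes in either direction and 7.71% higher. In the mean of both sexes the 4 genes of the female comparison passed, 3 higher and 1 lower, against 40.8% of all genes (20.3% higher and 20.6% lower). The threshold was an adjusted p of 0.05 (Benjamini-Hochberg, over all 13865 genes) in limma, whose adjusted p is meant unless another tool is named. The WT and LCHADD libraries did not overlap for 4 of the 9 genes in females and 5 in males, against 44.5% and 38.9% of all genes, and for 2 across all libraries of both sexes, against 19.7%. The count of females fell to 1 without WT female 2 and to 2 without LCHADD female 1, and that of males rose to 5 without LCHADD female 2 and to 3 without LCHADD female 3. The male values do not enter that change, which comes through the estimate of spread that all 4 groups share. The median log2 change of the 9 genes was -0.12 in females and 0.24 in males, beside -0.0035 and 2.0e-05 over all tested genes. The plot of normalised reads by library shows all 9 genes.

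**Figure D1:**
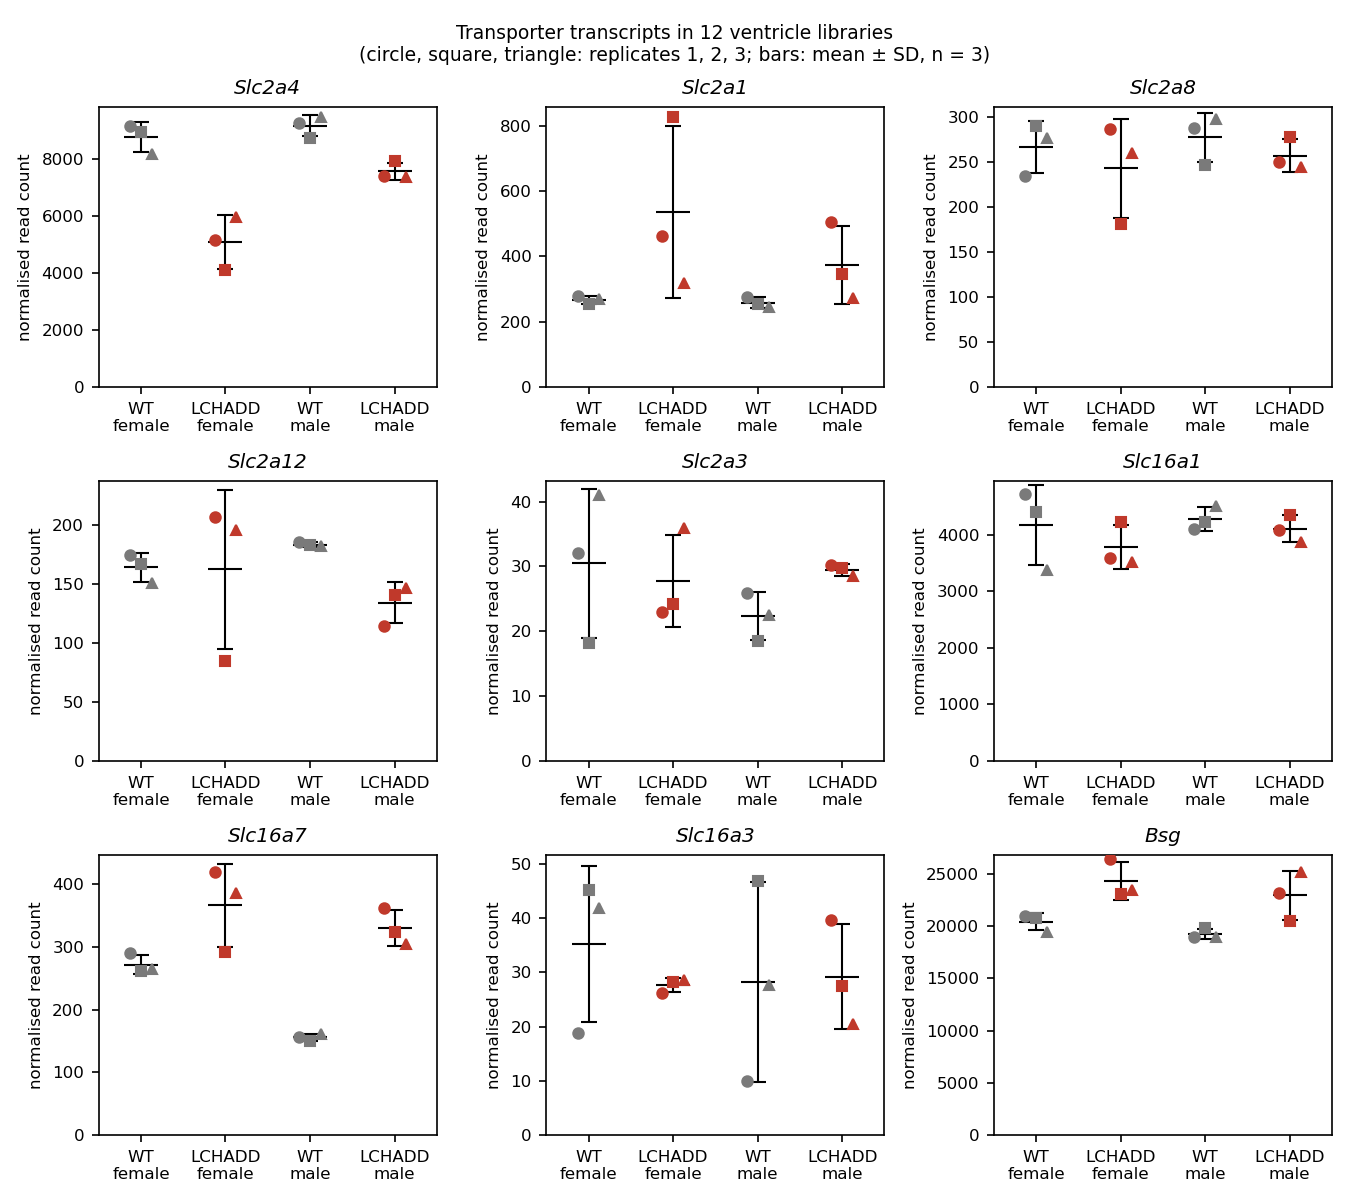
Normalised read count (vertical axes, from 0) of the 9 transporter genes in each of the 12 libraries, by group; circles, squares and triangles are replicates 1, 2 and 3, and bars give mean ± SD (n = 3). Slc2a4 lay at 8177 or above in all 6 WT libraries and at 7933 or below in all 6 LCHADD libraries, and Slc16a7 at 290 or below in WT and at 292 or above in LCHADD.

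Slc2a4 (GLUT4, ENSMUSG00000018566), the insulin-responsive carrier, was lower in LCHADD females. WT females had 9185, 8970 and 8177 normalised reads and LCHADD females 5178, 4112 and 5984. WT males had 9297, 8770 and 9505 and LCHADD males 7420, 7933 and 7376. No LCHADD library reached the lowest WT library in either sex, and the lowest of all was LCHADD female 2. Group means were 8778 ± 531 against 5091 ± 939 for females and 9191 ± 379 against 7576 ± 309 for males (WT against LCHADD, SD, n = 3). Slc2a4 fell by 0.80 on the log2 scale in females (SE 0.10, adjusted p = 4.2e-05). The male difference of -0.28 (SE 0.10, 95% interval -0.50 to -0.05) had an adjusted p of 0.086 and did not pass. It passed at 0.006 without LCHADD female 2, at 0.024 without LCHADD female 3 and at 0.0021 with the male groups fitted alone. In the mean of both sexes Slc2a4 fell by 0.54 (SE 0.07, adjusted p = 4.1e-05).

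Cardiomyocyte marker genes moved with Slc2a4. Cfd, a marker of adipocytes, which carry GLUT4 as well, also fell in LCHADD females but did not pass in males. Among WT females Cfd was highest in WT female 3, which had their lowest Slc2a4 (8177). With 3 libraries and few Cfd reads this order cannot relate Cfd to Slc2a4. In females Cfd had 11.7, 15.6 and 32.5 normalised reads (WT) against 0, 2.91 and 4.23 (LCHADD, adjusted p = 0.015), and its part in the fall of Slc2a4 was not tested. Per 10000 reads of the 6 summed markers, Slc2a4 stood at 91.4 ± 2.41 in WT females and 80.7 ± 2.63 in LCHADD females, with ranges of 89.2 to 94.0 and 78.9 to 83.7. In males it stood at 96.9 ± 2.96 in WT and 94.0 ± 2.64 in LCHADD, and those ranges overlapped. On the log2 scale the genotype difference of Slc2a4 relative to the markers was -0.18 in females and -0.04 in males, while the marker sum itself differed by -0.62 and -0.24. This ratio was chosen after its values were seen and carries no test, and the part of the markers in the fall of Slc2a4 was not tested.

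**Figure D2:**
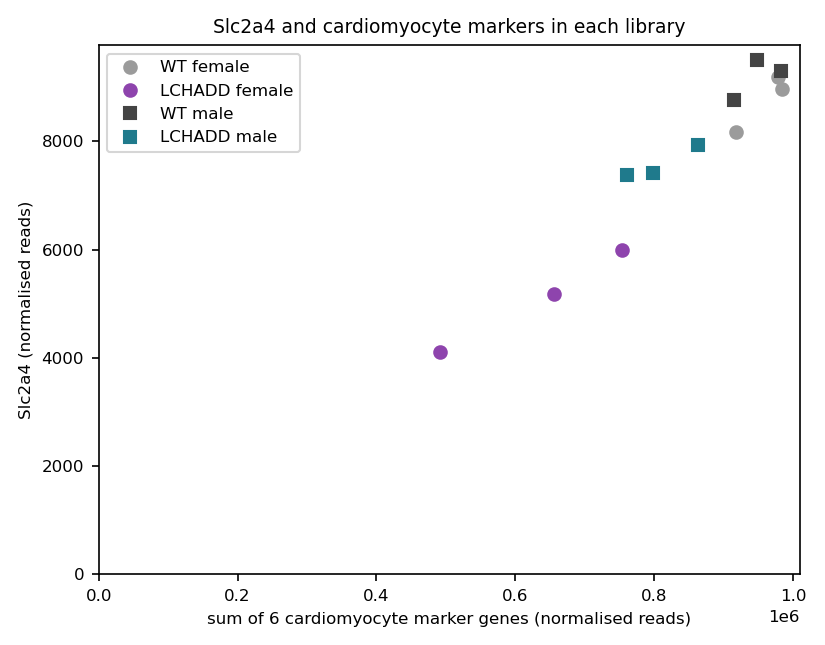
Slc2a4 (normalised reads) against the sum of 6 cardiomyocyte marker genes (normalised reads), 1 point per library, both axes from 0. The 3 LCHADD female libraries lie lowest on both axes, with LCHADD female 2 at 4112 normalised reads of Slc2a4, and the 6 WT libraries lie together at the upper right.

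Slc2a1 (GLUT1, ENSMUSG00000028645), the carrier of fetal heart and of endothelium, was higher in LCHADD females. WT females had 278, 254 and 270 normalised reads and LCHADD females 463, 828 and 319. WT males had 277, 254 and 245 and LCHADD males 504, 345 and 273. The WT libraries lay close together, whereas the LCHADD libraries spread widely, and LCHADD male 3 lay below the highest WT male. Means were 267 ± 12.2 against 537 ± 263 for females and 259 ± 16.6 against 374 ± 118 for males (WT against LCHADD, SD, n = 3). Slc2a1 rose by 0.89 on the log2 scale in females (SE 0.26, adjusted p = 0.016). Without LCHADD female 2, which had the highest value, the rise was 0.52 (adjusted p = 0.041). The call was lost without WT female 2 (0.85, adjusted p = 0.051), with the female groups alone (0.054), and with LCHADD female 2 and WT female 3 both left out (0.53, adjusted p = 0.071). In males the difference of 0.49 (SE 0.26, 95% interval -0.07 to 1.04) did not pass (adjusted p = 0.23). It passed at 0.041 without LCHADD female 2 and at 0.031 with the male groups fitted alone. Without LCHADD male 1 it was 0.25 (adjusted p = 0.62). The mean of both sexes rose by 0.69 (SE 0.18, adjusted p = 0.0078), and by 0.50 (adjusted p = 0.0032) without LCHADD female 2.

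Against the endothelial markers, which fell, Slc2a1 stood at 242 ± 8.89 (WT) against 611 ± 262 (LCHADD) per 10000 summed marker reads in females, and at 238 ± 20.1 against 425 ± 139 in males (SD, n = 3). Since the marker sum fell, this ratio differs by more than Slc2a1 itself by construction. The part of endothelial cells in the rise of Slc2a1 was not tested. Relative to the cardiomyocyte markers the log2 difference of Slc2a1 was 1.51 in females and 0.72 in males, without a test.

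The promoters of Slc2a1, which rose, and of Slc16a1, which did not pass, are shown as examples picked with these results known. Both come from RefSeq on build GRCm38.p6, plus strand, written 5′ to 3′ and ending at the base before the transcribed part: chr4:119108495-119108710 for Slc2a1 (216 bases) and chr3:104638414-104638663 for Slc16a1 (250 bases). Capitals mark matches, on either strand, to the E-box CACGTG bound by Myc, to the HIF core ACGTG that the E-box contains, to the GC box GGGCGG bound by Sp1 (CCGCCC on the other strand) or to TGATGNAA, a composite site of ATF4.
Slc2a1: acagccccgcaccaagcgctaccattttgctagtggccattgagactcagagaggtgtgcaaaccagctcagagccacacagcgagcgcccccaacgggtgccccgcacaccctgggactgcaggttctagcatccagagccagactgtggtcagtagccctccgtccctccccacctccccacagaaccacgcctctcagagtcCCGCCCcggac
Slc16a1: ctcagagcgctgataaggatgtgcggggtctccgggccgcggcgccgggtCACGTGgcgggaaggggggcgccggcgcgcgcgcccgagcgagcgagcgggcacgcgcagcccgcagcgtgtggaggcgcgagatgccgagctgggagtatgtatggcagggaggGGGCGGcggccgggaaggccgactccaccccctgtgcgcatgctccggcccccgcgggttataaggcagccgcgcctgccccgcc
The Slc2a1 window held 1 GC box and none of the other motifs. Of all 32851 RefSeq promoters, cut to their first 216 bases, 27.9% held a GC box, 14.1% the HIF core, 4.89% the E-box and 3.00% TGATGNAA. Those windows were not trimmed at annotated exons, so they need not end next to the transcribed part. The Slc16a1 window held 1 E-box, and with it both matches to the HIF core, and 1 GC box. In windows of 250 bases the shares were 6.02%, 16.6% and 32.7%. A match describes letters in this window and no binding, and a part of these motifs in the changes was not tested. RefSeq promoters were matched for 5 of the 9 genes. Among the matched genes not shown, Slc16a3 held 1 HIF core and 1 GC box in 236 bases. Slc2a8 and Slc2a12 held 0 of the motifs. None of Slc16a1, Slc16a3, Slc2a8 and Slc2a12 passed in a genotype comparison, whether or not a motif was present.

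Slc2a8, Slc2a12 and Slc2a3, the other glucose carriers, passed in no genotype comparison. Slc2a8 (GLUT8, ENSMUSG00000026791), an intracellular carrier, had 235, 290 and 277 normalised reads (WT) against 288, 182 and 261 (LCHADD) in females, and 289, 247 and 298 against 250, 278 and 245 in males. The groups overlapped in both sexes. Its log2 differences were -0.16 in females (95% interval -0.49 to 0.17, adjusted p = 0.47) and -0.11 in males (adjusted p = 0.69), and the female difference turned to 0.04 without LCHADD female 2.

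Slc2a12 (GLUT12, ENSMUSG00000037490), a second carrier found in insulin-sensitive tissue, had 175, 166 and 151 normalised reads (WT) against 207, 84.5 and 195 (LCHADD) in females. WT males had 185, 182 and 182 and LCHADD males 115, 141 and 147. In females LCHADD female 2 lay far below the other 2 LCHADD libraries, which were above WT, whereas in males all 3 LCHADD libraries lay below all 3 WT libraries. The male difference was -0.45 (SE 0.25, 95% interval -0.98 to 0.07, adjusted p = 0.24). It passed at 0.012 without LCHADD female 2 and at 0.021 with the male groups fitted alone. Without LCHADD male 1 it was -0.35 (adjusted p = 0.5). The female difference was -0.12 (95% interval -0.64 to 0.41), and it turned to 0.30 without LCHADD female 2 (adjusted p = 0.12). Of the Slc2a12 exon bases 9.61% overlap Tbpl1 on the opposite strand, as do 2.99% of those of Slc2a1 (Gm12868) and 1.51% of those of Slc16a7 (Gm47862), and the sources used here do not say whether counting used strand.

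Slc2a3 (GLUT3, ENSMUSG00000003153), the high-affinity carrier of neurons and leukocytes, was counted with 15 to 48 reads per library. WT females had 32.1, 18.2 and 41.1 normalised reads and LCHADD females 23.0, 24.3 and 35.9. WT males had 25.9, 18.5 and 22.5 and LCHADD males 30.2, 29.8 and 28.4. The female groups overlapped, and in males the LCHADD libraries lay above the WT libraries. The male difference of 0.40 (95% interval -0.24 to 1.04) had an adjusted p of 0.40, and the female one was -0.09 (95% interval -0.73 to 0.55). With so few reads these intervals are wide, and any difference inside them remains possible.

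Slc16a7 (MCT2, ENSMUSG00000020102), the monocarboxylate carrier with the highest affinity for pyruvate, rose in LCHADD hearts of both sexes. WT females had 290, 261 and 264 normalised reads and LCHADD females 420, 292 and 387. WT males had 156, 150 and 161 and LCHADD males 362, 324 and 305. The 6 LCHADD libraries lay above all 6 WT libraries, although LCHADD female 2 (292) exceeded WT female 1 (290) by little. In males it rose by 1.07 on the log2 scale (SE 0.13, 95% interval 0.80 to 1.35, adjusted p = 6.6e-05), from 156 ± 5.23 to 330 ± 28.8 (SD, n = 3). In females it rose by 0.41 (SE 0.13, 95% interval 0.14 to 0.69, adjusted p = 0.021), from 272 ± 15.6 to 366 ± 66.2. The female call was lost without WT female 2 (adjusted p = 0.070), WT female 3 (0.063), LCHADD female 1 (0.31 on the log2 scale, adjusted p = 0.10) or LCHADD female 3 (0.058), and with the female groups alone (0.072). The male call held in every alternative run.

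Slc16a1 (MCT1, ENSMUSG00000032902), the widespread importer of lactate in heart, had 4725, 4401 and 3369 normalised reads (WT) against 3591, 4228 and 3517 (LCHADD) in females. Males had 4100, 4226 and 4510 (WT) against 4087, 4352 and 3875 (LCHADD). The groups overlapped in both sexes, with the lowest value of all in WT female 3. The log2 difference was -0.13 in females (95% interval -0.36 to 0.10, adjusted p = 0.39) and -0.06 in males (95% interval -0.29 to 0.17, adjusted p = 0.76). Without WT female 3 the female difference was -0.28 and passed (adjusted p = 0.037), as did the mean of both sexes (-0.17, adjusted p = 0.044). Relative to the cardiomyocyte markers the direction turned, without a test: the log2 difference was 0.49 in females, where the groups overlapped, and 0.17 in males, where they did not (41.7 to 47.5 in WT and 50.4 to 51.2 in LCHADD per 10000 marker reads).

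Slc16a3 (MCT4, ENSMUSG00000025161), the low-affinity exporter of glycolytic muscle, was scarce, with 10 to 52 reads per library. WT females had 18.8, 45.1 and 41.9 normalised reads and LCHADD females 26.2, 28.2 and 28.5. WT males had 9.96, 46.9 and 27.7 and LCHADD males 39.6, 27.5 and 20.5. WT libraries of 1 sex differed among themselves by more than the genotypes did. The log2 differences were -0.25 in females (95% interval -1.22 to 0.72, adjusted p = 0.71) and 0.24 in males (95% interval -0.73 to 1.21, adjusted p = 0.77), and the male difference moved between -0.34 without WT male 1 and 0.72 without WT male 2.

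Bsg (basigin, ENSMUSG00000023175) rose moderately in LCHADD females. WT females had 21013, 20770 and 19485 normalised reads and LCHADD females 26445, 23113 and 23436. WT males had 18971, 19790 and 19011 and LCHADD males 23203, 20485 and 25162. All LCHADD libraries exceeded all WT libraries of their sex. The rise in females was 0.25 on the log2 scale (SE 0.08, 95% interval 0.07 to 0.43, adjusted p = 0.030), and the male difference was also 0.25 (SE 0.08, 95% interval 0.07 to 0.43) but missed the threshold (adjusted p = 0.056). In the mean of both sexes Bsg rose by 0.25 (SE 0.06, adjusted p = 0.0033). The female call was lost without WT female 1 (0.053), WT female 2 (0.062), WT female 3 (0.10) or LCHADD female 1 (0.13), with the female groups alone (0.068) and with no filter (0.089). Relative to the cardiomyocyte markers, without a test, the log2 difference of Bsg was 0.87 in females and 0.48 in males, and that of Slc16a7 was 1.04 and 1.31. The male difference of Bsg itself passed with DESeq2 (0.030), with a filter at 50 (0.048) and with the male groups alone (0.016). It also passed without LCHADD female 2 (0.023), LCHADD female 3 (0.038) or LCHADD male 2 (0.020), but not without LCHADD male 1 (0.15).

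**Figure D3:**
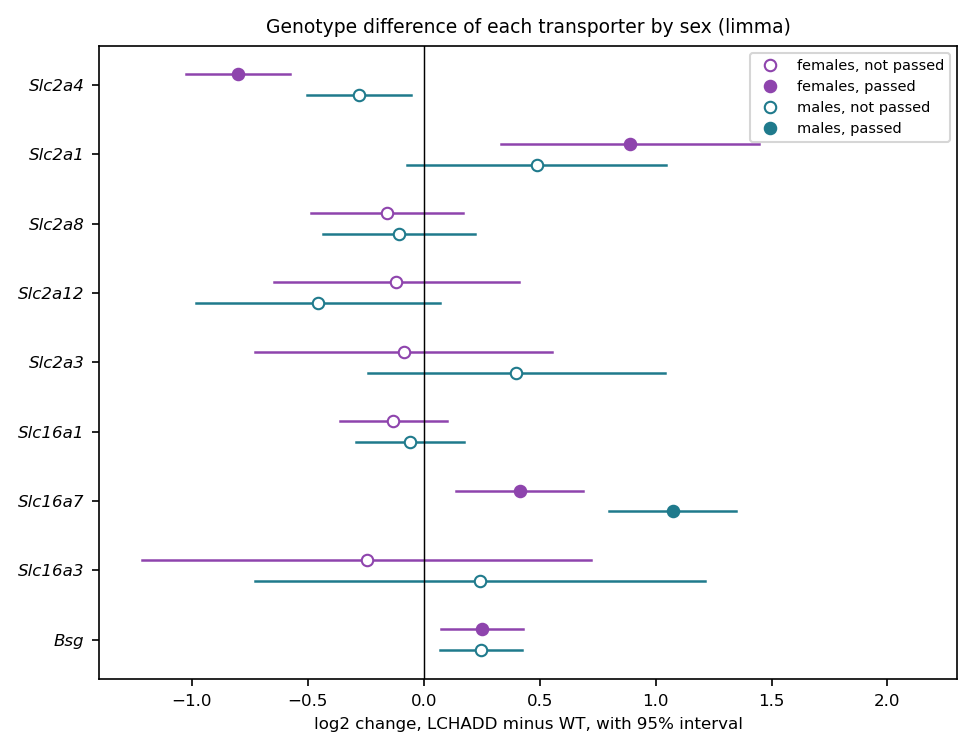
Log2 change (LCHADD minus WT, horizontal axis) of the 9 genes with its 95% interval, in females (purple) and males (teal); filled points passed the limma test and open points did not. Slc2a4 lies at -0.80 in females, Slc16a7 at 1.07 in males, and the intervals of Slc2a3 and Slc16a3 are the widest.

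Ratios within a library do not depend on its size factor. Slc2a1 amounted to 3.02, 2.83 and 3.31% of Slc2a4 (WT) against 8.93, 20.1 and 5.33% (LCHADD) in females. In males it amounted to 2.98, 2.90 and 2.57% in WT and to 6.80, 4.34 and 3.70% in LCHADD. Every LCHADD library exceeded every WT library, and LCHADD female 2 had the highest ratio. The mean log2 difference of this ratio was 1.69 in females, between 1.18 and 2.13 with 1 library left out, and 0.76 in males, between 0.51 and 0.95. Slc16a7 amounted to 6.13, 5.93 and 7.85% of Slc16a1 (WT) against 11.7, 6.91 and 11.0% (LCHADD) in females. In males it was 3.81, 3.56 and 3.57% in WT and 8.85, 7.45 and 7.87% in LCHADD. The female groups overlapped, since LCHADD female 2 lay below WT female 3, and the male groups did not. Slc16a1 amounted to 20.3 ± 2.70% (WT) against 15.6 ± 2.42% (LCHADD) of its partner Bsg in females, where the groups overlapped, and to 22.2 ± 1.30% against 18.1 ± 2.95% in males (SD, n = 3), where they did not. Ratios are given as descriptions, without a test.

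**Figure D4:**
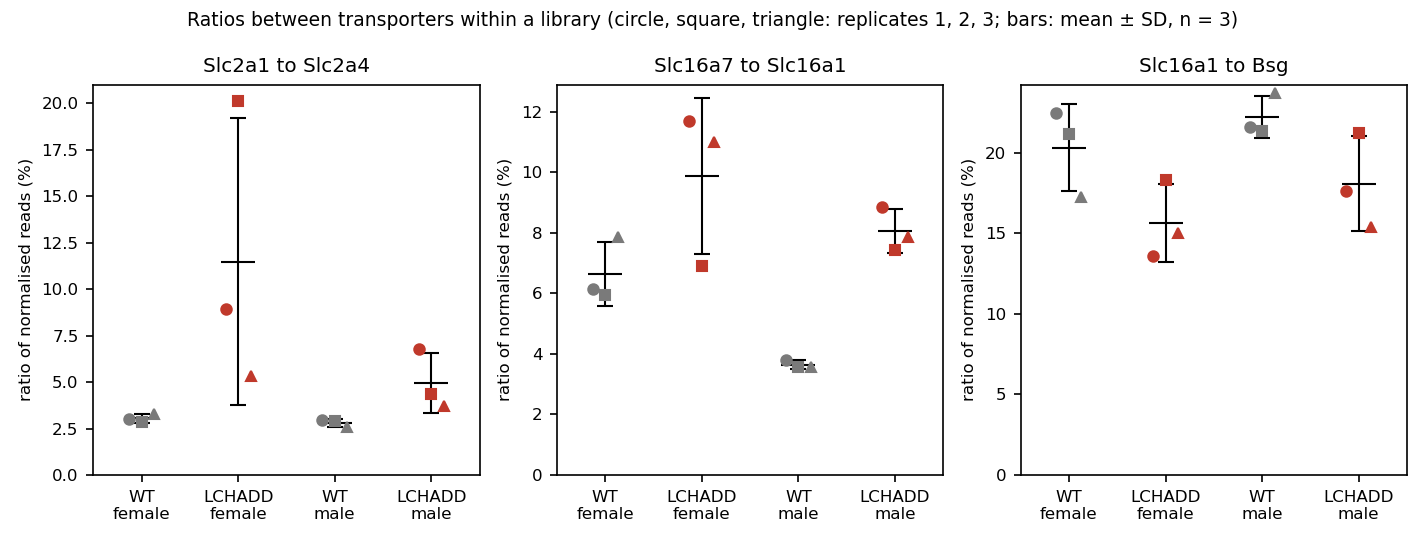
Ratio of normalised reads (%, vertical axes from 0) of Slc2a1 to Slc2a4, Slc16a7 to Slc16a1 and Slc16a1 to Bsg in each library; circles, squares and triangles are replicates 1, 2 and 3, and bars give mean ± SD (n = 3). The ratio of Slc2a1 to Slc2a4 reached 20.1% in LCHADD female 2 and stayed at or below 3.31% in all WT libraries.

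The sexes were compared for each gene. In WT hearts Slc16a7 was higher in females by 0.80 on the log2 scale (SE 0.13, adjusted p = 0.011), the only one of the 9 genes to pass, against 0.245% of all genes. DESeq2 gave it an adjusted p of 6.7e-05. In limma the call was lost when any of WT females 1 to 3 or WT males 1 and 2 was left out, with adjusted p from 0.052 to 0.091. In LCHADD hearts the sexes differed by 0.14 in Slc16a7 (adjusted p = 0.60). There Slc2a4 was the only one of the 9 to pass, lower in females by 0.59 on the log2 scale (log2 difference -0.59, SE 0.10, adjusted p = 0.0048), against 5.77% of all genes, and this call was lost with the LCHADD groups alone (adjusted p = 0.081). Whether the genotype difference itself differed between the sexes was tested as an interaction, which 0 of the 9 genes and 0.00721% of all genes passed in limma, and 0 of the 9 with edgeR or DESeq2. Without adjustment 2 of the 9, Slc2a4 and Slc16a7, and 1363 of all genes were under 0.05. The interaction was -0.52 for Slc2a4 (SE 0.15, adjusted p = 0.25) and -0.66 for Slc16a7 (SE 0.18, adjusted p = 0.24). That of Slc2a4 passed without LCHADD female 3 (-0.65, adjusted p = 0.019).

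Compared per length, as normalised reads per kilobase of annotated exon, Bsg was the most abundant of the 9 in WT hearts at 10937 ± 481 (SD, n = 6). Slc2a4 followed at 2583 ± 135 and Slc16a1 at 954 ± 106. Slc2a8 at 85.0 ± 8.10 and Slc2a1 at 75.0 ± 3.96 had overlapping ranges, and below them came Slc2a12 at 40.9 ± 3.09 and Slc16a7 at 18.1 ± 5.43. Slc16a3 at 5.96 ± 2.88 and Slc2a3 at 3.64 ± 1.22 overlapped at the lower end. In LCHADD hearts the order was the same but for Slc2a1, at 130 ± 57.8, above Slc2a8, at 78.1 ± 11.7, with overlapping ranges. The ranges of Slc2a12 and Slc16a7 overlapped there too, and in LCHADD female 2 Slc16a7 (24.7) exceeded Slc2a12 (19.9). Slc2a4 remained far above Slc2a1, at 1821 ± 431 per kilobase.

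The rest of the Slc2 and Slc16 families, and Emb, the partner of MCT2, were counted from lists. Of 7 other facilitative hexose carriers 4 were tested. Slc2a10 (GLUT10), with 6 to 43 reads per library, fell in females (-1.24, SE 0.39, adjusted p = 0.023). Slc2a9, the urate carrier, stood at -0.33 in females and -0.40 in males and did not pass. Of 4 sodium-coupled carriers only Slc5a1 (SGLT1) had enough reads. Slc5a1 passed in neither sex and fell in the mean of both (-1.10, SE 0.38, adjusted p = 0.030). It had only 2 to 22 reads per library, and the genotypes overlapped (9.39 to 27.1 normalised reads in WT, 2.19 to 12.7 in LCHADD). Of 11 genes comprising other Slc16 members and Emb, 9 were tested: 0 rose and 4 fell in females, and 0 rose and 3 fell in males. Of all genes 33.8% and 15.5% were called in either direction. Called lower were 17.2% of all genes in females and 1077 of 13865 in males. The median log2 change of the 9 tested genes was -0.61 in females and -0.38 in males. Slc16a10, an aromatic amino acid carrier, fell by 0.61 in females (adjusted p = 0.00051) and by 0.37 in males (adjusted p = 0.030). Slc16a9 fell by 1.01 in females (adjusted p = 0.011) and by 0.96 in males (adjusted p = 0.031), and Slc16a12, a creatine carrier, by 0.88 in males (adjusted p = 0.040). Slc16a6 stood at 0.26 in females and 0.34 in males and did not pass. Of the Slc16 genes reported here, only Slc16a7 rose in a genotype comparison.

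**Figure D5:**
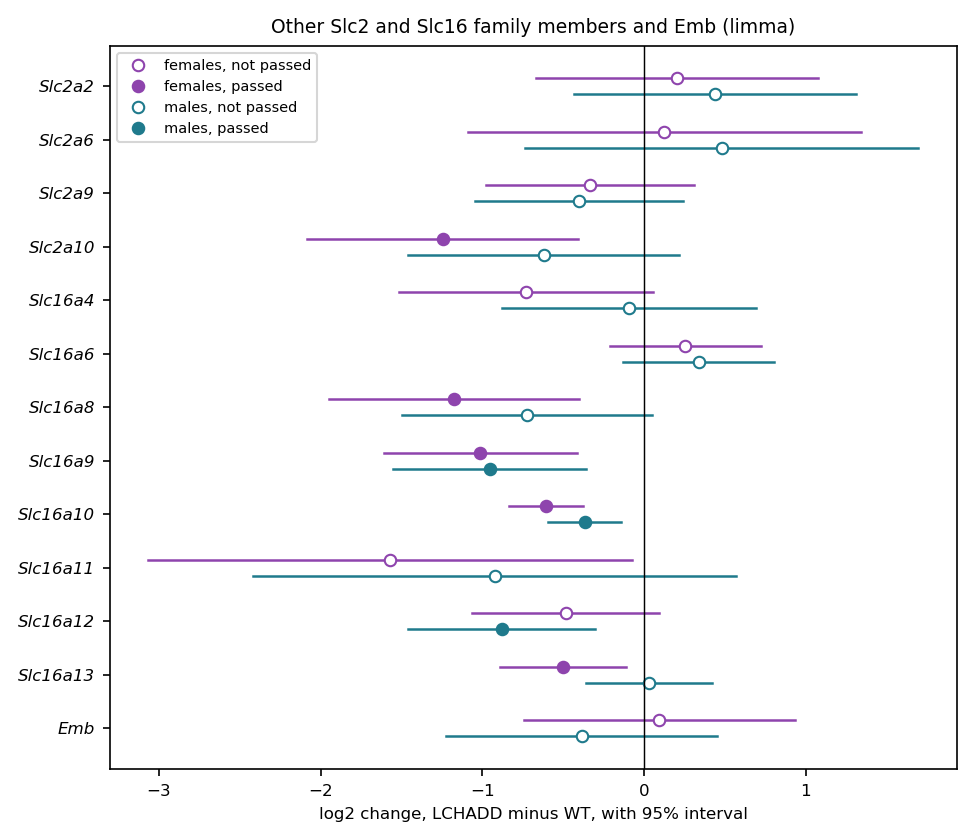
Log2 change (LCHADD minus WT, horizontal axis) with its 95% interval of other Slc2 and Slc16 genes that were tested and of Emb, in females (purple) and males (teal); filled points passed the limma test. All 4 filled Slc16 points of females and all 3 of males lie below 0.

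Of 15 genes of the vesicle traffic that moves GLUT4 to the surface, 5 rose and 2 fell in females and 2 rose and 2 fell in males. Of all genes 33.8% and 15.5% were called in these comparisons, in both directions about equally. Myo5a, a vesicle motor, rose by 1.21 in females (SE 0.12, adjusted p = 3.4e-06) and by 0.85 in males (adjusted p = 0.00027). Sort1 (sortilin), which sorts GLUT4 into its storage vesicles, fell by 0.86 in females (adjusted p = 0.00048) and by 0.60 in males (adjusted p = 0.014). Vamp2, the vesicle's fusion protein, fell by 0.45 in females (adjusted p = 0.00059) and by 0.28 in males (adjusted p = 0.030). Rhoq stood at -0.07 in females and did not pass in either sex.

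Of 10 genes of insulin and contraction signalling, 0 rose and 4 fell in females, and 0 rose and 1 fell in males. Of all genes 33.8% and 15.5% were called in either direction. Called lower were 17.2% of all genes in females and 1077 of 13865 in males. Irs2, an insulin receptor substrate, fell by 1.73 in females (SE 0.32, adjusted p = 0.00077), Irs1 by 0.99 (adjusted p = 0.00058), and Pik3r1, the regulatory subunit of PI3-kinase, by 0.73 (adjusted p = 0.00018). Pik3r1 also fell in males, by 0.45 (adjusted p = 0.014). Akt1 stood at -0.0047 in females and 0.17 in males and did not pass. The arrestin-like proteins Txnip and Arrdc4 both curb glucose uptake by removing carriers from the surface. Txnip rose in males (1.19, SE 0.32, adjusted p = 0.021) and stood at 0.28 in females (adjusted p = 0.53), whereas Arrdc4 fell by 0.83 in females (adjusted p = 0.0031) and by 0.70 in males (adjusted p = 0.019).

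Among 8 transcription factors known to act on glucose transporter genes, 2 rose and 2 fell in females, and 2 rose and 1 fell in males, beside 33.8% and 15.5% of all genes. Myc rose by 2.35 in females (SE 0.35, adjusted p = 0.00012) and 2.82 in males (adjusted p = 8.4e-05), and Hif1a by 0.54 (adjusted p = 0.0026) and 0.63 (adjusted p = 0.0025). Thra, a thyroid hormone receptor, fell by 0.35 in females (adjusted p = 0.0033) and by 0.31 in males (adjusted p = 0.016). Mef2a, of the family that binds the Slc2a4 promoter, stood at -0.12 in females and 0.09 in males and did not pass.

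Of 8 genes of the first steps after entry, 1 rose and 3 fell in females and 2 rose and 1 fell in males, again beside 33.8% and 15.5% of all genes. Hk1, the hexokinase of most tissues, rose by 0.54 in females (adjusted p = 0.0020) and by 0.65 in males (adjusted p = 0.0014), while Hk2, the muscle form, stood at -0.27 in females and did not pass. Ldha, the lactate dehydrogenase subunit of glycolytic tissue, fell by 1.23 in females (SE 0.12, adjusted p = 2.3e-06) and by 0.63 in males (adjusted p = 0.0022). Ldhb, the subunit typical of heart, fell by 0.35 in females (adjusted p = 0.00082) and stood at -0.01 in males. Bdh1, the enzyme that oxidises 3-hydroxybutyrate, fell by 0.36 in females (adjusted p = 0.021) and rose by 0.38 in males (adjusted p = 0.031), and its interaction of -0.74 had an adjusted p of 0.14. Cardiomyocyte markers fell in LCHADD females, and their part in these list counts was not tested.

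For the 3 genes with the smallest adjusted p in the mean of both sexes, the genes of most similar level over the 12 libraries were sought among 10629 tested genes with a mean of at least 50. Slc2a4 ran closest to Pfkm, the muscle phosphofructokinase (Pearson r = 0.993), Slc25a11 (0.991) and Ppp1r12b (0.989). After the 4 group means were removed, Pfkm (0.991) and Casq2, the calcium store protein of cardiac muscle (0.991), stood first. Slc16a7 ran closest to Abcc8, a subunit of ATP-sensitive potassium channels (0.962), Kcne1 (0.947) and Ccdc191 (0.937), none of which was among its 3 closest once the group means were removed (Tmem41b 0.942, Camta1 0.92 and Myh14 0.918). Bsg ran closest to P4hb, a protein disulfide isomerase of the endoplasmic reticulum (0.951), Akr1a1 (0.947) and Mbd2 (0.942), and without the group means to Ttll5 (0.962), Akr1a1 (0.945) and Acvrl1 (0.938). These libraries share genotype, sex and cell makeup, and the correlations are descriptions without a test.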

How the data were processed

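Per the submitters' processing notes, reads were processed against build GRCm39 with bcl2fastq and DESeq2. For aligner, counter, annotation and strand the tools and settings were not given in the sources used here. Signal values that the authors deposited are, by their steps, reads divided by a size factor for each library. Whole reads were recovered from it, since values were whole multiples of 1 step within 0.01. Symbols (51633 of 51912 genes matched) and exon lengths came from GENCODE vM21 on GRCm38 and promoters from RefSeq on GRCm38.p6, so no gene coordinates are given in the build of the files.

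Groups follow the labels' genotype and sex. Genes with a value of at least 10 in at least 3 of 12 libraries (13865) were tested as log2(value + 1) with limma 3.58.1 (lmFit, eBayes with trend; R 4.3.3) in 1 fit of 4 group means, with Benjamini-Hochberg adjustment over all of them. A log2 change understates that of genes with few reads. Alternatives were other added values, filters and scalings, edgeR 4.0.16 (quasi-likelihood) and DESeq2 1.42.0 (Wald) on the recovered reads, robust eBayes, array weights, single comparisons, a replicate block and libraries left out. The 9 genes, the lists and the alternatives were chosen with earlier results of these data known, and the value per cardiomyocyte marker sum was added after its data were seen. Genes named from lists are, per comparison, at most 3 that passed, by smallest adjusted p, and at most 2 abundant ones that missed the threshold. A gene of these lists is not reported here. The script for limma was tested on simulated counts.

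Depth was 15.6 M to 23.2 M reads per library. Genes with few reads, Slc2a3 and Slc16a3, have the least precise values.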

Additional observations from a re-analysis of the deposited data

How the results depend on the processing

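Of 1422 values of the 9 genes under the alternatives, over 54 comparisons, 39 passed newly, 24 no longer passed and 1359 kept their side of the threshold, 1309 of them with the same sign and 50 with the other. The 50 belong to 17 comparisons that did not pass, and the lowest adjusted p among them was 0.11. A change of direction past the threshold occurred in 0 cases. The cause of the differences below was not tested, except that fitting a comparison alone, leaving libraries out or asking for 1.5-fold changes the samples or the rule by construction.

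Of the 9 genes, 1 passed in males, but 2 with a filter at 50, 2 with scaling by nuclear reads, 2 with DESeq2, 2 with robust eBayes, 5 with array weights, 5 with the groups alone and 5 when WT female 3 was left out together with LCHADD female 2. In females 4 passed, but 1 with the groups alone and 2 at 1.5-fold, and in the mean of both sexes 4 and 2 at 1.5-fold. For the interaction 0 passed, and 3 with array weights (Slc2a4, Slc2a12 and Slc16a7). Between LCHADD females and males 1 passed, but 4 with array weights, 0 with the groups alone and 2 without that pair. With 1 library left out the counts were 1 to 4 in females, 1 to 5 in males, 4 to 5 in the mean, 0 to 1 for the interaction, 0 to 1 between WT sexes and 1 to 2 between LCHADD sexes.

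Of all genes, 4692 passed in females and 2461 at 1.5-fold. In males 2146 passed, 3601 with array weights, 3342 with the groups alone, 3317 without the pair and 1087 at 1.5-fold. In the mean 5661 passed and 2033 at 1.5-fold. For the interaction 1 passed, 2 with a filter at 50, 2 with edgeR, 113 with DESeq2, 749 with array weights and 9 without the pair. Between WT sexes 34 passed, 87 with DESeq2, 133 with array weights, 142 with the groups alone and 73 without the pair. Between LCHADD sexes 800 passed, 3121 with array weights, 82 with the groups alone and 311 at 1.5-fold. With 1 library left out the counts were 3733 to 5075 in females, 1317 to 3293 in males, 5019 to 6033 in the mean, 0 to 186 for the interaction, 17 to 105 between WT sexes and 215 to 1643 between LCHADD sexes. Scaling by nuclear reads gave 2884 higher and 1953 lower genes in females, beside 2314 and 2378, and 502 and 260 between LCHADD sexes, beside 368 and 432.

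WT and LCHADD libraries of the same number and sex did not deviate together from their group means (r from -0.0536 to 0.031). With 3 libraries a group this cannot decide whether the numbers pair them. With the replicate block 4502 genes passed in females, 2016 in males, 5482 in the mean, 1 for the interaction, 31 between WT sexes and 541 between LCHADD sexes, and of the 9 genes 4, 1, 4, 0, 1 and 1.

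Depth limits Slc2a3 and Slc16a3, and 3 libraries a group limit every interval.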
